A study of Mus musculus with 4 samples.

Results

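The oxidative phosphorylation genes were followed in 4 mouse livers of wild-type (WT) genotype. All came from animals with acute-on-chronic liver failure (ACLF), in which an acute insult strikes a liver that is already chronically diseased. Both groups carried the same disease model and differed in treatment: 2 livers came from ACLF mice given baicalein, a flavone of the herb Scutellaria baicalensis, and 2 from ACLF mice given saline. Dose, collection time, age and sex are not in the labels, and no healthy liver was analysed here. Members were chosen by symbol: names that begin with Nduf, Sdha to Sdhd, Uqcr, Cox4 to Cox8, Atp5 or mt-, together with Cyc1 and Cycs. The rule took 116 of the 21959 genes in the table, of which 103 are nuclear and 13 are encoded by mitochondrial DNA. By role they are 80 nuclear subunit genes (Cycs included), 13 mitochondrially encoded subunits, 12 assembly factors, 8 isoforms that other tissues use and 3 others. Of the 116, 107 had enough counts to be tested; 4 had no count in any liver (Cox8c, Cox7b2, Ndufb11b and the second of 2 gene IDs listed as Atp5o), and the other 5 (Cox4i2, Cox6b2, Sdhaf1, mt-Atp8 and mt-Nd4l) had at most 19 counts in any liver.

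The respiratory chain sits in the inner mitochondrial membrane. Complex I takes electrons from NADH and complex II from succinate, both pass them to coenzyme Q, and complex III hands them on to cytochrome c, from which complex IV passes them to oxygen. Complexes I, III and IV pump protons as they do so, and complex V, the ATP synthase, lets the protons flow back to make ATP. Every complex but complex II combines nuclear subunits, made in the cytosol and imported, with subunits encoded by mitochondrial DNA. Hepatocytes are rich in mitochondria and use this ATP for gluconeogenesis, urea synthesis and detoxification.

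The deposited counts summed to 14766061 and 18731616 in baicalein 1 and baicalein 2, against 17673137 and 13976440 in saline 1 and saline 2. The labels number the livers but do not tie each to a separate mouse. The p-values therefore rest on the variation among these samples alone, some of which may be technical. All 8 hepatocyte markers (Alb, Apoa1, Ttr, Hnf4a, Cps1, Tat, Apob and Fgb) were detected in every liver, with a summed level of 116442 and 99239 CPM (read counts scaled to a common normalised library size) with baicalein, against 85721 and 81362 CPM with saline. Skeletal muscle transcripts set 1 liver of each group apart: 14 markers summed to 1.10 and 2187 CPM in baicalein 1 and baicalein 2, against 6771 and 1.46 CPM in saline 1 and saline 2. The 4 Y-linked genes Ddx3y, Kdm5d, Eif2s3y and Uty had 2 and 1 counts in the baicalein livers, against 820 and 836 in the saline livers. Treatment and this Y-linked difference run together in the 4 livers and cannot be told apart below.

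Of the 107 tested members, 27 fell and none rose with baicalein (edgeR quasi-likelihood test, adjusted p below 0.05, Benjamini-Hochberg over 12657 genes). The calls were led by Uqcr10 of complex III, mt-Co2, Cox5a and Cox6a1 of complex IV and cytochrome c itself. At an unadjusted p below 0.05 the counts were 55 lower and 0 higher, where 14.7% of all tested genes were lower and 14.7% higher; DESeq2 and limma-voom also called no member higher. The 27 are 25.2% of the tested members; over all tested genes, 7.9% were lower and 7.65% were higher. The 27 falls in mean CPM ran between 20.9% and 33.7%. The median log2 fold change, baicalein over saline, was -0.29 for the 79 tested nuclear subunits, a change of -18.3% in level, and -0.28 for the 11 tested mitochondrially encoded genes, against 0.01 for all tested genes. In the nuclear subunits 74 of 79 fold changes were negative, and in the mitochondrially encoded genes 11 of 11 were.

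By CPM, both baicalein livers lay below both saline livers in 84 of the 107 members (78.5%), against 29.5% of all tested genes. They lay above both in 5 members, against 29.7%. These numbers depend on the normalisation. By deposited FPKM (counts divided by gene length and library total), a part of the members with both baicalein livers below by CPM overlapped between the groups. Among them were Ndufa1, Ndufa2, Ndufa13, Ndufb5, Ndufb7, Ndufb10, Uqcrh, Atp5h, Atp5k and Ndufaf3, named after their values were seen. Cox7a2, Cox7b, mt-Co1, mt-Nd3 and mt-Nd4 overlapped by FPKM too. Calls were more frequent among highly expressed genes, and most members are highly expressed. Among tested genes with a mean of at least 20 CPM, 14.2% were lower with baicalein and the median log2 fold change was -0.07. Of the 84 members in that range, 26 (31.0%) were lower. Separation was also commoner in that direction there. Of the 5577 tested genes in that range, 2327 had both baicalein livers below both saline livers, a larger share than the 29.5% of all, and 1378 had both above. In a bulk sample, fewer cells of a type and less RNA per cell cannot be told apart. Beside these falls, all 5 Kupffer cell markers rose (summed level 604 and 520 CPM with baicalein, against 339 and 297 CPM with saline) and all 5 sinusoidal endothelium markers rose (335 and 327 CPM, against 232 and 208 CPM), with no marker at 0 in any liver. Of the 5 stellate cell markers 3 rose and none fell, but their summed level overlapped between the groups (365 and 497 CPM with baicalein, against 391 and 138 CPM with saline). Of the 5 red cell markers, 4 fell (137 and 153 CPM with baicalein, against 918 and 658 CPM with saline), and of the 8 hepatocyte markers 2 rose and 2 fell. Their part in the lower subunit transcripts was not tested.

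**Figure D1:**
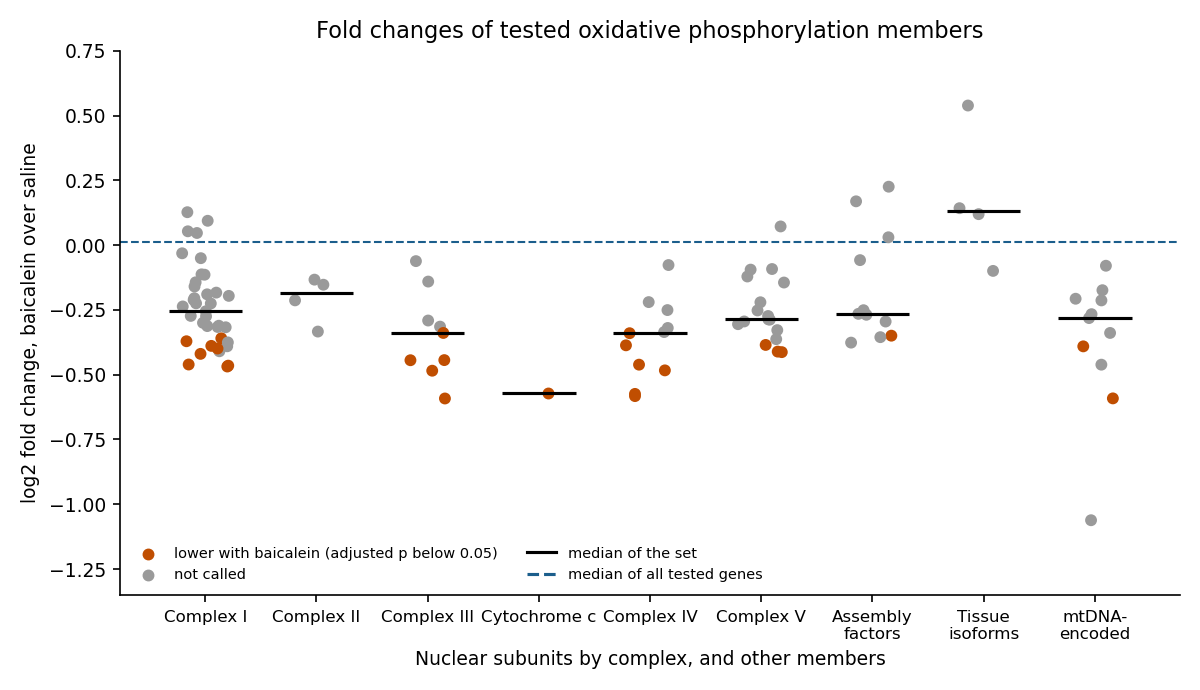
Log2 fold change (baicalein over saline, vertical axis) of each tested member, grouped along the horizontal axis into nuclear subunits by complex, assembly factors, tissue isoforms and mitochondrially encoded genes; each point is 1 gene, coloured where it was called lower, with a black bar at the median of each set and a dashed line at the median of all tested genes. Nearly all points of the subunit sets lie below the dashed line at 0.01, the set medians of complexes III and IV lie at -0.34, and no member is called higher.

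Complex I, the NADH dehydrogenase, was lower in a part of its subunits. Of its 37 tested nuclear subunits, 8 fell and 33 had negative fold changes, with a median log2 fold change of -0.26. Summed over them, the level was 2228 and 2194 CPM in the baicalein livers, against 2780 and 2585 CPM in the saline livers, a ratio of means of 0.824, and the groups did not overlap. Ndufs6, a zinc-binding accessory subunit of the peripheral arm, had 45.6 and 43.9 CPM with baicalein, against 63.1 and 60.02 CPM with saline (log2 fold change -0.46, SE 0.09, edgeR adjusted p = 0.0094). Ndufa10, an accessory subunit of the membrane arm, had 154 and 151 CPM with baicalein, against 228 and 195 CPM with saline. The lower saline liver still lay above both baicalein livers, and the fold change was -0.47 (SE 0.11, edgeR adjusted p = 0.021).

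Ndufs3, a core subunit of the arm that carries electrons to coenzyme Q, was also lower. It had 108 and 104 CPM with baicalein, against 147 and 130 CPM with saline (log2 fold change -0.39, edgeR adjusted p = 0.0337). The spread between the saline livers was wider than that between the baicalein livers, and the groups did not overlap. Ndufs3 shares 75.7% of its transcript with the processed pseudogene Gm12251 on chromosome 11, at 98.6% identity over 792 bases, so its counts are uncertain.

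Accessory subunits of the membrane arm and of the NADH-binding module were lower as well. Ndufb3 had 39.2 and 41.2 CPM with baicalein, against 56.1 and 51.4 CPM with saline, and Ndufv3 had 55.6 and 50.9 CPM with baicalein, against 79.3 and 67.7 CPM with saline. Ndufb6 had 22.1 and 21.9 CPM with baicalein, against 28.7 and 29.5 CPM with saline, and Ndufa3 had 37.8 and 34.2 CPM with baicalein, against 47.6 and 44.6 CPM with saline. In these 4 genes no baicalein liver reached a saline liver, at log2 fold changes between -0.47 and -0.36 (edgeR adjusted p between 0.018 and 0.0384). The gene of Ndufb6 overlaps Smim27 on the other strand over 39.0% of its exon bases, and no source used here states whether counting used strand, so its reads cannot be told apart from those of Smim27.

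Other complex I subunits stayed near the median of all genes. Ndufa6, Ndufa7 and Ndufa5, accessory subunits named here after their values were seen, had log2 fold changes of 0.09, -0.03 and -0.05 (edgeR adjusted p between 0.574 and 0.881). Ndufa6 had 103 and 99.1 CPM with baicalein, against 90.8 and 98.5 CPM with saline, the only one of the 79 tested nuclear subunits with both baicalein livers above both saline livers. Ndufc1, also named after its values were seen, missed the threshold by little, with 24.3 and 22.7 CPM with baicalein, against 30.2 and 30.7 CPM with saline (edgeR adjusted p = 0.0502).

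Complex II, succinate dehydrogenase, is the complex with no mitochondrially encoded subunit, and none of its 4 subunits passed. Sdha, the flavoprotein that oxidises succinate, had 526 and 521 CPM with baicalein, against 666 and 653 CPM with saline (log2 fold change -0.33, SE 0.10, edgeR adjusted p = 0.0511). Sdhd and Sdhc, which anchor the enzyme in the membrane, had log2 fold changes of -0.15 and -0.21 (edgeR adjusted p = 0.348 and 0.212), and Sdhb, the iron-sulfur protein, one of -0.13 (edgeR adjusted p = 0.439). All 4 had both baicalein livers below both saline livers, and their summed level was 1172 and 1113 CPM with baicalein, against 1376 and 1338 CPM with saline. The median of -0.18 was the smallest in size among the complexes, but that order among complexes was not tested.

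Complex III, the cytochrome bc1 complex, had 5 of 9 tested nuclear subunits lower and all 9 fold changes negative, with a median of -0.34. Uqcr10 (ENSMUSG00000059534, chromosome 11, 4651973 to 4654342 in the table's coordinates, of a build that the sources used here do not name) is a small accessory subunit. It had 72.3 and 70.5 CPM in the baicalein livers, against 107 and 108 CPM in the saline livers. The 2 livers of each group lay within 2 CPM of each other, while the groups stood apart by 33.7% of the saline mean (71.4 ± 1.30 CPM with baicalein and 108 ± 0.515 CPM with saline, SD, n = 2 each; log2 fold change -0.59, SE 0.09, edgeR adjusted p = 0.00324). Uqcr11, another small accessory subunit, had 62.03 and 59.9 CPM with baicalein, against 87.4 and 83.2 CPM with saline (log2 fold change -0.48, edgeR adjusted p = 0.00827). A processed pseudogene, Gm16418, matches 20.2% of its transcript.

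The nuclear subunits of complex III that carry electrons, Cyc1 and Uqcrfs1, were both called lower. Cyc1, cytochrome c1, which passes electrons to cytochrome c, had 152 and 150 CPM with baicalein, against 205 and 206 CPM with saline (log2 fold change -0.44, SE 0.09, edgeR adjusted p = 0.0145). Uqcrfs1, the Rieske iron-sulfur protein, had 222 and 217 CPM with baicalein, against 278 and 277 CPM with saline (log2 fold change -0.34, edgeR adjusted p = 0.0442). Uqcrc1, a core protein of the matrix side, had 186 and 189 CPM with baicalein, against 268 and 243 CPM with saline (log2 fold change -0.44, edgeR adjusted p = 0.0191). In each, the livers of a group were closer to each other than the groups were. Uqcrb was the exception in this complex: it had 43.5 and 40.8 CPM with baicalein, against 42.7 and 45.3 CPM with saline, and the groups overlapped (log2 fold change -0.06, edgeR adjusted p = 0.718). Summed over the 9 genes, complex III had 1270 and 1254 CPM with baicalein, against 1634 and 1591 CPM with saline, a ratio of 0.783.

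Cycs encodes somatic cytochrome c, the soluble carrier between complexes III and IV and, once released from mitochondria, an activator of apoptosis. Cycs (ENSMUSG00000063694, chromosome 6, 50539543 to 50543518 in the table's coordinates) had 80.7 and 85.2 CPM in the baicalein livers, against 122 and 124 CPM in the saline livers. The groups did not overlap and the mean fell by 32.7% (83.0 ± 3.17 CPM with baicalein and 123 ± 1.52 CPM with saline, SD, n = 2 each; log2 fold change -0.57, SE 0.09, edgeR adjusted p = 0.0042). Genes with near-identical sequence cover 33.7% of its transcript, the longest being Gm10053 on chromosome 19, so part of its count could belong to copies or be missing from it.

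Complex IV, cytochrome c oxidase, had 6 of 11 tested nuclear subunits lower. By CPM, both baicalein livers lay below both saline livers in all 11, but by deposited FPKM Cox7a2 and Cox7b overlapped. The summed level of the 11 was 1349 and 1316 CPM with baicalein, against 1704 and 1716 CPM with saline, a ratio of 0.779. Cox6a1 (ENSMUSG00000041697, chromosome 5, 115483701 to 115487040 in the table's coordinates) is the form of subunit 6a that liver uses. It had 133 and 125 CPM with baicalein, against 197 and 187 CPM with saline (129 ± 5.72 CPM with baicalein and 192 ± 7.01 CPM with saline, SD, n = 2 each; log2 fold change -0.57, SE 0.10, edgeR adjusted p = 0.00506). Cox5a, an accessory subunit on the matrix side, had 21.9 and 22.4 CPM with baicalein, against 34.5 and 31.9 CPM with saline (log2 fold change -0.58, SE 0.11, edgeR adjusted p = 0.00808). The groups stood apart in both genes. The gene of Cox5a overlaps Gm26631 on the other strand over 12.8% of its exon bases.

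Cox8a, the liver form of a single-span subunit, had 103 and 99.7 CPM with baicalein, against 139 and 141 CPM with saline (log2 fold change -0.46, edgeR adjusted p = 0.0112). Cox5b, a zinc-binding subunit, had 92.8 and 103 CPM with baicalein, against 147 and 128 CPM with saline (log2 fold change -0.48, edgeR adjusted p = 0.0198). Cox5b-ps, a pseudogene by its name that shares 390 bases with Cox5b at 99.2% identity, had 8.87 and 8.28 CPM with baicalein, against 12.8 and 12.6 CPM with saline. It was called as well (log2 fold change -0.57, edgeR adjusted p = 0.0384), and the 2 cannot be read as separate genes, since reads they share could be counted under either. Cox6b1 had 153 and 148 CPM with baicalein, against 196 and 184 CPM with saline. Ndufa4, first assigned to complex I by its name and now placed in complex IV, had 173 and 163 CPM with baicalein, against 203 and 238 CPM with saline (log2 fold changes -0.34 and -0.39, edgeR adjusted p = 0.0472 and 0.0496). Ndufa4 was the called member nearest to the threshold.

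Complex V, the ATP synthase, had 3 of 17 tested nuclear subunits lower and a median log2 fold change of -0.29. Atp5a1, the alpha subunit of the catalytic F1 head, had 1052 and 1029 CPM with baicalein, against 1424 and 1294 CPM with saline (log2 fold change -0.39, SE 0.10, edgeR adjusted p = 0.0398). Atp5d, the delta subunit of the central stalk, had 157 and 143 CPM with baicalein, against 213 and 187 CPM with saline (log2 fold change -0.41, edgeR adjusted p = 0.0358). The catalytic partner of Atp5a1, the beta subunit Atp5b, was named after its values were seen: it had 1316 and 1274 CPM with baicalein, against 1655 and 1545 CPM with saline, and did not pass (log2 fold change -0.31, edgeR adjusted p = 0.0839). Summed over the 18 nuclear subunits, the level was 4200 and 4039 CPM with baicalein, against 5304 and 4963 CPM with saline, a ratio of 0.802.

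The proton-carrying c ring is encoded by 3 genes whose mature proteins are the same. Atp5g3 had 314 and 297 CPM with baicalein, against 422 and 390 CPM with saline, and fell (log2 fold change -0.41, SE 0.10, edgeR adjusted p = 0.0269). Atp5g1 had 120 and 112 CPM with baicalein, against 152 and 131 CPM with saline (log2 fold change -0.29, edgeR adjusted p = 0.111). Atp5g2 had 73.1 and 67.1 CPM with baicalein, against 78.4 and 71.0 CPM with saline (log2 fold change -0.09, edgeR adjusted p = 0.598). Baicalein and saline livers did not overlap in Atp5g3 and Atp5g1 and overlapped in Atp5g2; whether the 3 fold changes differ from each other was not tested.

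**Figure D2:**
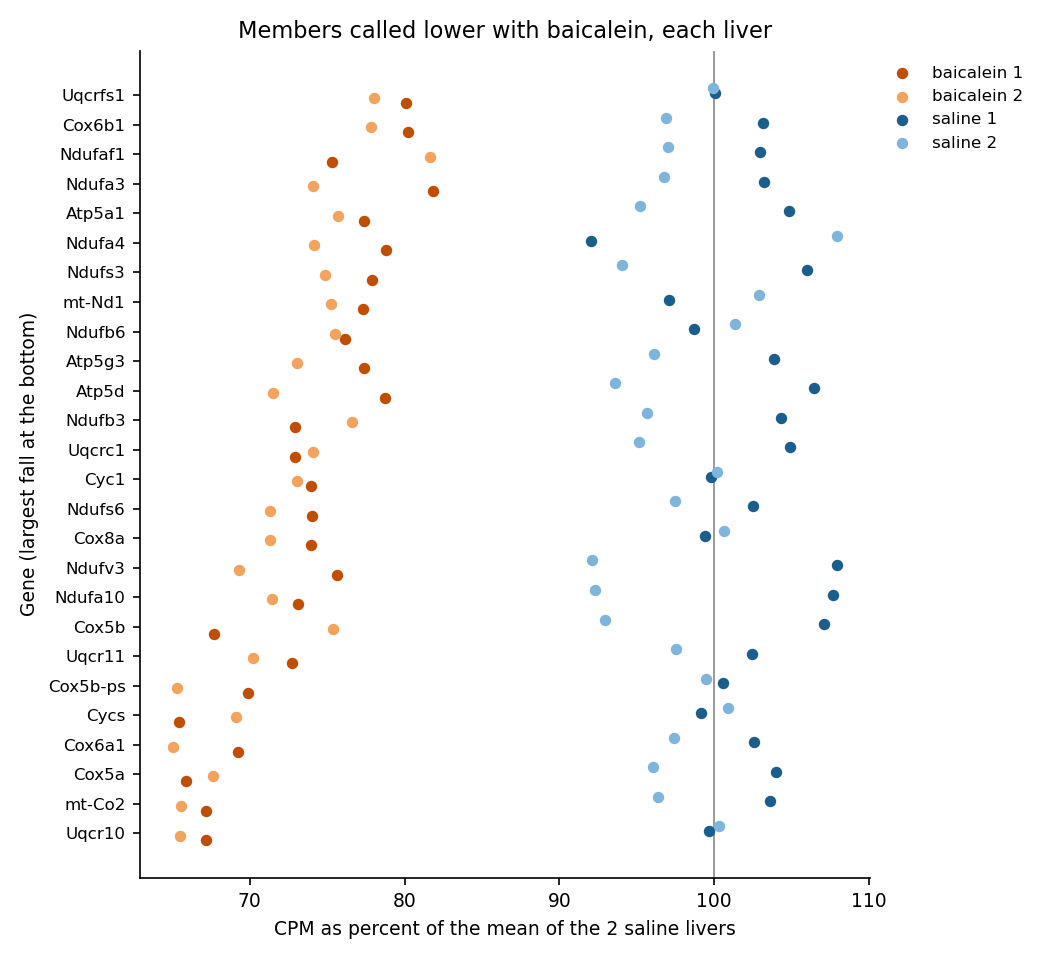
CPM of 26 of the 27 members called lower, 1 row per gene and 1 point per liver, as percent of the mean of the 2 saline livers (horizontal axis); colours mark baicalein 1, baicalein 2, saline 1 and saline 2. The 4 points of each gene fall into 2 pairs that do not overlap, with baicalein livers between 65% and 82% of the saline mean.

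The nuclear core set here holds the core subunits of complex I, all subunits of complex II, Cyc1 and Uqcrfs1 of complex III and the F1 subunits of complex V. The other nuclear subunits, the c ring genes included, count as accessory, and Cycs as neither. All 18 nuclear core subunits had both baicalein livers below both saline livers, with 6 called lower and a median log2 fold change of -0.31 (range -0.44 to -0.13). Of the 60 tested accessory subunits, 48 had the groups apart in that direction by CPM, 1 in the other and 11 overlapped. Of the same 60, 16 were called lower and the median was -0.27 (range -0.59 to 0.13). The core subunits are also the more highly expressed, with a median of 194 CPM against 67.9 CPM, and the difference between the 2 kinds was not tested.

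Assembly factors build the complexes without staying in them. Of 11 tested, 1 fell (9.09%, near the 7.9% of all tested genes). Ndufaf1, which acts on the membrane arm of complex I, had 32.0 and 34.7 CPM with baicalein, against 43.7 and 41.2 CPM with saline (log2 fold change -0.35, SE 0.10, edgeR adjusted p = 0.043). Ndufaf6 and Sdhaf2, factors for complexes I and II that were named after their values were seen, had both baicalein livers above both saline livers without passing (log2 fold changes 0.23 and 0.17, edgeR adjusted p = 0.321 and 0.346). Cox7a2l, which joins complexes III and IV into supercomplexes, had 112 and 109 CPM with baicalein, against 102 and 104 CPM with saline, and did not pass (log2 fold change 0.11, edgeR adjusted p = 0.492).

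Each of the 4 livers was left out in turn, which leaves 1 liver in a group. In these 4 fits the median log2 fold change of nuclear subunits lay between -0.34 and -0.28, and fewer members were called lower. Without saline 1, the share of members called lower was near that of all tested genes, and in the other fits it was above it. Uqcr10, mt-Co2, Cycs and Cox6a1 passed in each of these 4 fits and in the other alternatives; 13 of the 27 passed in none of the 4 fits, among them Ndufs3, Ndufa10, Uqcrc1, Uqcrfs1 and Atp5d. All 27 kept a negative fold change in every alternative. Their groups stood apart by CPM, so this sign was nearly fixed in the fits with a liver left out. Without TMM factors, scaling by library totals alone called 16 members lower and none higher, and 60% of all called genes were then higher, against 49.2% with TMM.

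The direction was the same with and without the 2 livers that held muscle transcripts. Baicalein 1 and saline 2, in which 9 and 10 of the 14 muscle markers were at 0, were set against each other alone, a comparison of 1 liver with 1 that was added after the data were seen and has no test. In it 73 of 79 nuclear subunits were lower in baicalein 1, with a median log2 ratio of -0.26, against 0.00 for all tested genes. In baicalein 2 against saline 1, the muscle-bearing pair, 75 of 79 were lower and the median was -0.33, against 0.01 for all genes. The 27 called members were lower in both pairs, but that was fixed in advance. All 27 had both baicalein livers below both saline livers by CPM.

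Per length, the subunits of a complex were far from equal in transcript level. Levels between genes are compared here as deposited FPKM (read counts divided by gene length and by library size), averaged over the 4 livers. The length used matches all annotated exon bases of a gene joined, and not the length of a single mRNA. For Atp5b it was 4237 bases, against 1916 in the longest transcript, and for Ndufab1 6883 bases, against 3479. The order of genes therefore depends partly on annotation, and how far was not tested. In complex V, Atp5a1 was highest at 381 FPKM (341 ± 14.8 FPKM with baicalein and 421 ± 23.0 FPKM with saline, SD, n = 2 each), followed by Atp5b at 340 FPKM. In complex IV Cox6b1 was highest at 240 FPKM and Cox5a lowest at 13.1 FPKM, and in complex III Uqcrfs1 was highest at 182 FPKM and Uqcrb lowest at 49.1 FPKM. In complex II, Sdhd had 175 FPKM and Sdhc 71.7 FPKM. In complex I Ndufb2, an accessory subunit, was lowest at 0.289 FPKM. Among nuclear subunits with a count, the 5 of lowest level were Ndufb2, Atp5o, Ndufab1, Atp5l and Ndufa11, between 0.289 and 5.02 FPKM, against a median of 39.96 FPKM in complex I and 47.9 FPKM in complex V, where the Atp5o ID with no count is included. Other genes, chiefly Gm15976, overlap 47.9% of the exon bases of the counted Atp5o ID (35.6% of the exon bases on the other strand), so its level is uncertain.

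The 13 mitochondrially encoded genes took 3.34% and 3.17% of all counts in the baicalein livers (95% Wilson intervals 3.33% to 3.35% and 3.16% to 3.18%), against 4.28% and 3.54% in the saline livers (4.27% to 4.29% and 3.53% to 3.55%). Intervals of this kind cover counting error only. The difference of -0.656 percentage points had an exact two-sided permutation p of 0.333, the smallest that 2 livers against 2 allow. Of the counts of all members, mitochondrially encoded genes took 76.2% and 74.1% with baicalein, against 77.1% and 74.1% with saline, and the groups overlapped. Nuclear members took 1.04% and 1.11% of all counts with baicalein, against 1.28% and 1.24% with saline. The nuclear share stood apart between the groups, as did the mitochondrial share of all counts.

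Of the 11 tested mitochondrially encoded genes, 2 fell. mt-Co2 (ENSMUSG00000064354, mitochondrial positions 7013 to 7696), which takes electrons from cytochrome c, had 42.4 and 41.3 CPM in the baicalein livers, against 65.3 and 60.8 CPM in the saline livers (41.8 ± 0.742 CPM with baicalein and 63.0 ± 3.22 CPM with saline, SD, n = 2 each; log2 fold change -0.59, SE 0.09, edgeR adjusted p = 0.00312). mt-Nd1, a membrane subunit of complex I, had 2229 and 2170 CPM with baicalein, against 2800 and 2968 CPM with saline (log2 fold change -0.39, SE 0.10, edgeR adjusted p = 0.0376). The groups stood apart in both. mt-Nd1 lost its call without either saline liver (edgeR adjusted p up to 0.469).

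The member with the largest fold change, mt-Nd2, did not pass. It had 2220 and 2483 CPM with baicalein, against 6277 and 3539 CPM with saline (log2 fold change -1.06, SE 0.35, edgeR adjusted p = 0.174). The groups did not overlap, but the saline livers differed from each other by more than saline 2 differed from the baicalein livers. Saline 1, the liver with the most muscle transcripts, was also the highest of the 4 in mt-Nd5 and mt-Nd6. mt-Nd5 had 693 and 776 CPM with baicalein, against 1155 and 631 CPM with saline, and mt-Nd6 had 97.6 and 104 CPM with baicalein, against 133 and 79.4 CPM with saline (log2 fold changes -0.28 and -0.08, edgeR adjusted p = 0.715 and 0.909). Both overlapped between the groups, and both had positive fold changes without saline 1 (0.21 and 0.33). The part of muscle transcripts in these 3 genes was not tested.

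The most abundant of all members was mt-Co1, the catalytic subunit of complex IV, which took 72.3% and 68.4% of the mitochondrially encoded counts with baicalein, against 66.0% and 68.0% with saline. Its level was 24529 and 20290 CPM with baicalein, against 29360 and 24554 CPM with saline; the lower saline liver was barely above the higher baicalein liver (log2 fold change -0.27, edgeR adjusted p = 0.269). mt-Cytb, cytochrome b of complex III, had 3166 and 2877 CPM with baicalein, against 3527 and 3292 CPM with saline (log2 fold change -0.17, edgeR adjusted p = 0.347). mt-Nd4 had 893 and 858 CPM with baicalein, against 1118 and 913 CPM with saline (log2 fold change -0.21, edgeR adjusted p = 0.285). By CPM these abundant genes kept the groups apart without passing. By deposited FPKM, which are scaled by library totals, 2 of them overlapped. mt-Co1 had 15636 and 14052 FPKM with baicalein, against 18291 and 15591 FPKM with saline. mt-Nd4 had 639 and 666 FPKM with baicalein, against 781 and 650 FPKM with saline.

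Their levels per length fall into a pattern along the mitochondrial genome that the groups share. The 5 genes outside positions 6390 to 11042 (mt-Nd1, mt-Nd2, mt-Nd5, mt-Nd6 and mt-Cytb) had mean levels of 199 to 3458 FPKM. The 6 genes wholly inside that stretch (mt-Co2, mt-Atp8, mt-Atp6, mt-Co3, mt-Nd3 and mt-Nd4l) had 0.083 to 76.2 FPKM. Together those 6 made up 0.270% and 0.312% of the mitochondrially encoded counts with baicalein, against 0.278% and 0.379% with saline. The stretch is the one for which the mm10 reference holds near-identical nuclear copies on chromosome 1 (at least 98% identity over 100 bases or more). Transcripts of mt-Co2, mt-Atp6, mt-Co3, mt-Nd3 and mt-Nd4l are matched over 99.0% to 99.9% of their length. mt-Atp8, the lowest of the 6, lies inside the stretch but had no such match among the annotated transcripts. No source used here states how reads that match several places were counted, so the level of these rows is uncertain, mt-Co2 included, and their part lost or gained was not tested.

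The closeness of the copies shows in the sequences, given 5′ to 3′ from the mm10 transcripts with capitals at the bases that differ. mt-Co2 and its copy Gm28661 are identical over 681 bases, of which bases 311 to 370 of the mt-Co2 row are shown once for both. mt-Nd3 and its copy Gm28438 differ at 1 of 345 bases (T3C, counted from the first base of mt-Nd3), and mt-Co1 and Gm29216 differ at 1 of 483 (A1066T, counted from the first base of mt-Co1).
mt-Co2 and Gm28661: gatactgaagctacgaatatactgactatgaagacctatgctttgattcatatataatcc
mt-Nd3: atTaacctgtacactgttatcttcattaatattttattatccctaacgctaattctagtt
Gm28438: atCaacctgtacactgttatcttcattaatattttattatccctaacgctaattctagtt
mt-Co1: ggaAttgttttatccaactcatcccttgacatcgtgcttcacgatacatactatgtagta
Gm29216: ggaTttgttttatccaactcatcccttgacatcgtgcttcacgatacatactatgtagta

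mt-Co1 is matched over 31.3% of its transcript and mt-Nd4 over 63.6%, and both kept high levels of 15892 and 684 FPKM. Within the stretch, mt-Co3 had 34.9 and 37.7 CPM with baicalein, against 42.1 and 58.0 CPM with saline (log2 fold change -0.46, edgeR adjusted p = 0.1248). mt-Atp6 had 10.2 and 9.53 CPM with baicalein, against 11.9 and 13.1 CPM with saline (log2 fold change -0.34, edgeR adjusted p = 0.178). mt-Nd3 had 3.78 and 3.79 CPM with baicalein, against 3.94 and 4.81 CPM with saline (log2 fold change -0.21, edgeR adjusted p = 0.677). By CPM each of the 3 had both baicalein livers below both saline livers, but mt-Nd3 overlapped by deposited FPKM. mt-Nd4l and mt-Atp8 had too few counts to test, with means of 4 and 0.25 counts a liver.

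**Figure D3:**
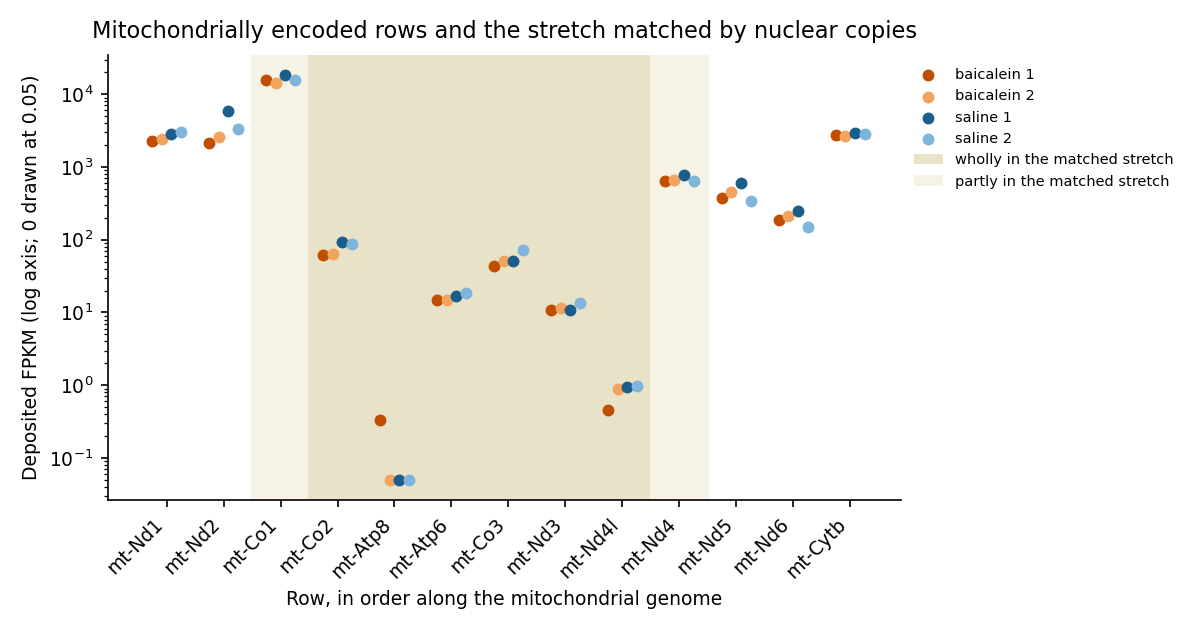
Deposited FPKM (log axis, with 0 drawn at 0.05) of the 13 mitochondrially encoded genes in their order along the mitochondrial genome, 1 point per liver and 1 colour per liver; dark shading marks genes wholly inside the stretch with near-identical nuclear copies and light shading those partly inside. The shaded inner genes have means of 76.2 FPKM or less and the unshaded ones of 199 FPKM or more, and the 4 livers lie close together beside this difference between genes.

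Several complex IV subunits exist as a liver form and a form used by skeletal and heart muscle. The muscle forms Cox6a2, Cox7a1 and Cox8b appeared in the 2 livers that held muscle markers. Cox6a2 had 4 and 319 counts in baicalein 1 and baicalein 2, against 296 and 0 counts in saline 1 and saline 2. Cox8b had 0 and 97 counts with baicalein, against 76 and 0 counts with saline, and Cox7a1 had 17 and 173 counts with baicalein, against 101 and 11 counts with saline. In each, 1 liver of each group was high and the other low, so the groups overlapped and the fits gave no usable fold (edgeR adjusted p between 0.895 and 0.99). At these depths 3 counts, the number a count of 0 allows for, correspond to 0.206 CPM in baicalein 1 and 0.219 CPM in saline 2.

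As a share of the FPKM of both forms, Cox6a2 made up 0.213% and 11.6% with baicalein, against 8.34% and 0% with saline. Cox7a1 made up 2.24% and 13.9% of the sum with Cox7a2 with baicalein, against 9.13% and 1.11% with saline. Cox8b made up 0% and 7.70% of the sum with Cox8a with baicalein, against 5.24% and 0% with saline. These isoforms and the 14 muscle markers marked the same 2 livers, but not in the same proportion. The markers were higher in saline 1 than in baicalein 2. Cox7a1 had 5.94 CPM in saline 1 and 8.63 CPM in baicalein 2, Cox8b 4.47 and 4.84 CPM, and Cox6a2 17.4 and 15.9 CPM. Heart markers (Myh6, Nppa, Myl7, Tnnt2 and Myl4) summed to 0.894 and 9.30 CPM with baicalein, against 1.18 and 0.729 CPM with saline. By CPM the liver partners Cox6a1, Cox7a2 and Cox8a had both baicalein livers below both saline livers. Cox6a1 and Cox8a were called lower. Cox7a2 was not (edgeR adjusted p = 0.0981), and it overlapped by deposited FPKM. The part of muscle transcripts in the levels of the partners was not tested.

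Fat and smooth muscle markers were uneven between the livers too. Fat markers (Ucp1, Cidea, Adipoq, Plin1 and Cfd) summed to 0 and 11.4 CPM with baicalein, against 9.58 and 0.219 CPM with saline, and smooth muscle markers (Myh11, Acta2, Tagln, Cnn1 and Des) to 13.95 and 325 CPM with baicalein, against 171 and 12.5 CPM with saline. Acta2 and Des are also made by other cells, stellate cells and skeletal muscle among them, and the smooth muscle markers were above 0 in every liver. The other isoforms were scarce. Cox4i2, a form known from lung and from low oxygen, had 5 and 19 counts with baicalein, against 2 and 0 counts with saline, and Cox6b2, a testis form, had 0 and 7 counts with baicalein, against 6 and 1 counts with saline. Ndufa4l2, which hypoxia induces in other cells, had 31 and 43 counts with baicalein, against 30 and 29 counts with saline, at most 1.63% of the FPKM of both forms (log2 fold change 0.14, edgeR adjusted p = 0.854).

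**Figure D4:**
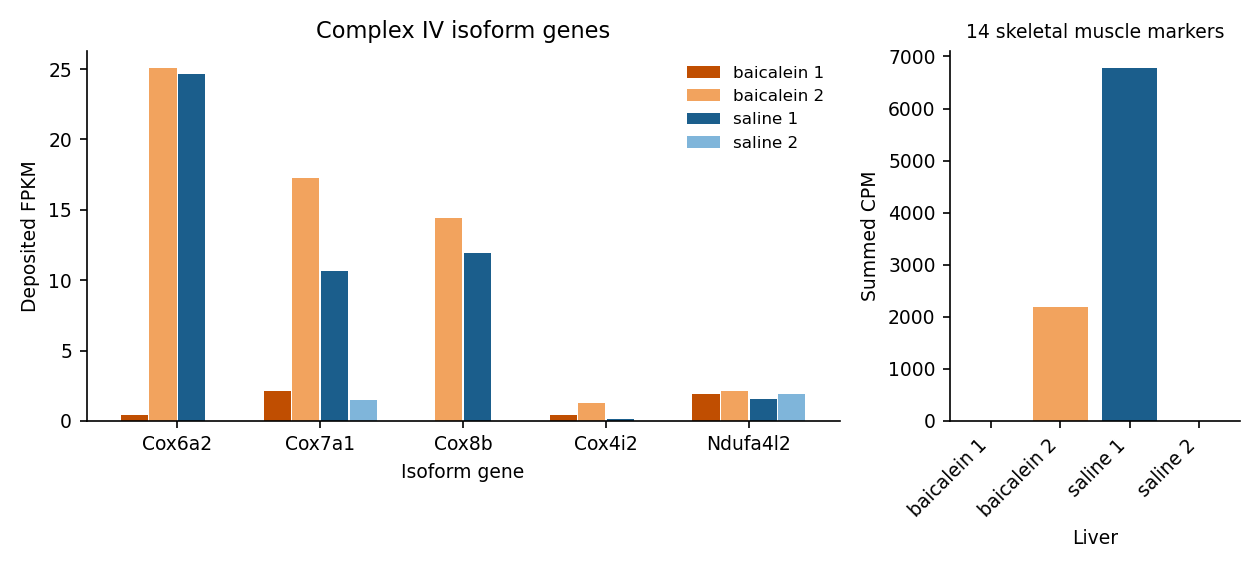
Left, deposited FPKM of 5 complex IV isoform genes, with 1 bar per liver; right, summed CPM of 14 skeletal muscle markers in each liver. Cox6a2, Cox7a1 and Cox8b are high in baicalein 2 and saline 1, the livers with 2187 and 6771 CPM of muscle markers, and low in the other 2.

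Nuclear subunit genes are known to share promoter elements for the factors NRF1, GABP (an ETS factor), ERR alpha and YY1. The promoters of members were searched for fixed strings in RefSeq windows of the GRCm38.p6 build, from 250 bases before to 50 after each start; 83 of 103 nuclear members and 66 nuclear subunits had a window. Both strands were searched, and no string contains another. The NRF1 string GCATGCGC was in 15.5% of 71 subunit windows, against 2.71% of all 32851 windows. The ETS string CTTCCGG was in 23.9%, against 8.86%, the ERR string CAAGGTCA in 5.63%, against 1.56%, and the YY1 string AAGATGGC in 14.1%, against 2.75%. The Sp string GGGCGG was in 39.4%, against 35.7%, and the TATA string TATAAA in 9.86%, against 13.6%. Subunit windows had a GC content of 58.1%, against 53.8% for all windows. A match describes the letters only and shows no binding.

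The strings were also counted apart in subunits called lower and in those tested and not called, with no test of the difference. NRF1 was in 19.05% of the 21 windows of called subunits, against 14% of the 50 windows of the others, ETS in 28.6%, against 22%, and YY1 in 9.52%, against 16%. ERR was in 4.76%, against 6%, Sp in 38.1%, against 40%, and TATA in 4.76%, against 12%. Of the called genes, 4 are shown, Cox6a1, Cycs, Uqcr11 and Uqcr10, as the 120 bases before the start on the gene's strand, with matched strings in capitals. The bases shown hold an ETS and an Sp string in Cox6a1, an NRF1 string in Cycs and an ETS string in Uqcr11. The whole windows hold NRF1, ETS and Sp strings in Cox6a1, NRF1 and Sp strings in Cycs, NRF1 and ETS strings in Uqcr11 and none of the 6 in Uqcr10. Those of Cox5a, Ndufs6 and Cox8a, also called but not shown, hold no NRF1 string. They hold only an Sp string in Cox5a, a YY1 string in Ndufs6 and an ETS string in Cox8a. The windows shown are chr5:115348959-115349078 for Cox6a1, chr6:50566570-50566689 for Cycs, chr10:80406822-80406941 for Uqcr11 and chr11:4704345-4704464 for Uqcr10, all on the minus strand of GRCm38.p6.
Cox6a1: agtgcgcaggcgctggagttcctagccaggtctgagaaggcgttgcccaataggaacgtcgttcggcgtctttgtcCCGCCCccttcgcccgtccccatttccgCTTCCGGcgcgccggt
Cycs: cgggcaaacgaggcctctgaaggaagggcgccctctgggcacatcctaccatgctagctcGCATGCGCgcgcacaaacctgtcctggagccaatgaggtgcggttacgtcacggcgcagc
Uqcr11: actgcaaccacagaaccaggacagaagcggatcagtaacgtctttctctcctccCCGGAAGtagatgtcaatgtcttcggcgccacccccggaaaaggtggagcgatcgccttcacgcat
Uqcr10: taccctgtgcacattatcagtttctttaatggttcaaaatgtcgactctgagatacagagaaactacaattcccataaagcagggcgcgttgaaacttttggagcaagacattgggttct

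Other mitochondrial genes were read as lists, written with earlier results of these data known, and the shares called are set beside the 7.9% lower and 7.65% higher of all tested genes. Of the 18 called list genes named below, Higd1a passed in every alternative, 10 lost their call with the replicate block, and 7 passed in none of the 4 fits with a liver left out (Esrra, Mrps11, Mrpl57, Cox18, Uqcc2, Timm23 and Timm13). Of 20 tested regulators of mitochondrial biogenesis, 1 rose (5%) and none fell, and the median was -0.01 on the log2 scale. The 1 was Esrra, which encodes ERR alpha, with 40.1 and 42.1 CPM with baicalein, against 31.9 and 32.3 CPM with saline (log2 fold change 0.36, SE 0.09, edgeR adjusted p = 0.035). The call was lost with DESeq2 and with the replicate block (DESeq2 and edgeR adjusted p = 0.089 and 0.0888) and without each liver in turn (edgeR adjusted p between 0.108 and 0.192).

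Of 77 tested genes of the mitochondrial ribosome, which translates the mitochondrially encoded subunits, 6 fell and none rose; their median log2 fold change was -0.18. That is 7.79% lower, near the share of all genes. Mrpl16 had 40.3 and 35.3 CPM with baicalein, against 56.7 and 53.3 CPM with saline (log2 fold change -0.54, edgeR adjusted p = 0.00787), and Mrpl38, Mrps11 and Mrpl57 fell by 0.51, 0.80 and 0.48 on the log2 scale (edgeR adjusted p between 0.0104 and 0.0268). Of 79 tested genes of the cytosolic ribosome none passed and the median was 0.00. At 40 negative and 39 positive fold changes, that list lay evenly about 0, whereas the nuclear subunits lay mostly below it. So did other mitochondrial lists. Negative were 64 of 77 mitochondrial ribosome genes, 23 of 24 carriers and coenzyme Q genes and 23 of 33 assembly genes outside the symbol rule. In the import list 16 of 22 were negative, in the tricarboxylic acid cycle 15 of 20, and in the regulators of biogenesis 11 of 20. The cytosolic genes nearest to passing, Rpl22 and Rpl12, had fold changes of 0.36 and -0.31 (edgeR adjusted p = 0.0545 and 0.0601).

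Of 33 tested assembly genes outside the symbol rule, 4 fell (12.1%) and none rose, and the median was -0.13. Higd1a, a small inner membrane protein that associates with complex IV, had 28.9 and 27.9 CPM with baicalein, against 43.4 and 43.1 CPM with saline (log2 fold change -0.61, SE 0.09, edgeR adjusted p = 0.00334). Cox19 and Cox18, which serve complex IV assembly, and Uqcc2, which serves complex III assembly, fell by 0.62, 0.59 and 0.54 on the log2 scale (edgeR adjusted p = 0.0116, 0.0426 and 0.0262). Of 22 tested import genes 2 (9.09%, near the share of all genes) were called lower, Timm23 and Timm13, by 0.35 each on the log2 scale (edgeR adjusted p = 0.0327 and 0.0403), and the median was -0.15. Both calls were also lost with library totals and with the replicate block, and that of Timm13 with DESeq2.

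Of 24 tested carriers and coenzyme Q genes, 5 fell (20.8%) and 1 rose (4.17%), with a median of -0.21. Etfdh, which passes electrons from fatty acid oxidation to coenzyme Q, had 161 and 173 CPM with baicalein, against 248 and 261 CPM with saline (log2 fold change -0.61, SE 0.10, edgeR adjusted p = 0.00419). Coq7, a coenzyme Q synthesis enzyme, and Gpd2, the mitochondrial glycerol-3-phosphate dehydrogenase, fell by 0.68 and 0.45 on the log2 scale (edgeR adjusted p = 0.00915 and 0.0124). Ucp2, an inner membrane carrier of the uncoupling protein family, rose instead, with 51.9 and 64.6 CPM with baicalein, against 41.0 and 39.5 CPM with saline (log2 fold change 0.53, edgeR adjusted p = 0.0166). It lost its call with the replicate block (edgeR adjusted p = 0.0605) and without baicalein 2 or either saline liver.

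The tricarboxylic acid cycle, which supplies NADH and succinate, had 1 fall (5%) and 2 rises (10%) among 20 tested genes and a median of -0.13, shares near those of all genes. Dlst, a subunit of the 2-oxoglutarate dehydrogenase complex, had 208 and 203 CPM with baicalein, against 298 and 278 CPM with saline (log2 fold change -0.49, edgeR adjusted p = 0.0115). Idh2, the mitochondrial NADP-dependent isocitrate dehydrogenase, had 142 and 159 CPM with baicalein, against 119 and 96.1 CPM with saline (log2 fold change 0.48, edgeR adjusted p = 0.0334). Pdk1, a kinase that inhibits pyruvate dehydrogenase, had 126 and 104 CPM with baicalein, against 77.2 and 87.0 CPM with saline (log2 fold change 0.49, edgeR adjusted p = 0.0268). The groups did not overlap in any of the 3. Pdk1 and Idh2 lost their calls with the replicate block (edgeR adjusted p = 0.1055 and 0.117) and without 3 of the 4 livers each, and Dlst without either saline liver.

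**Figure D5:**
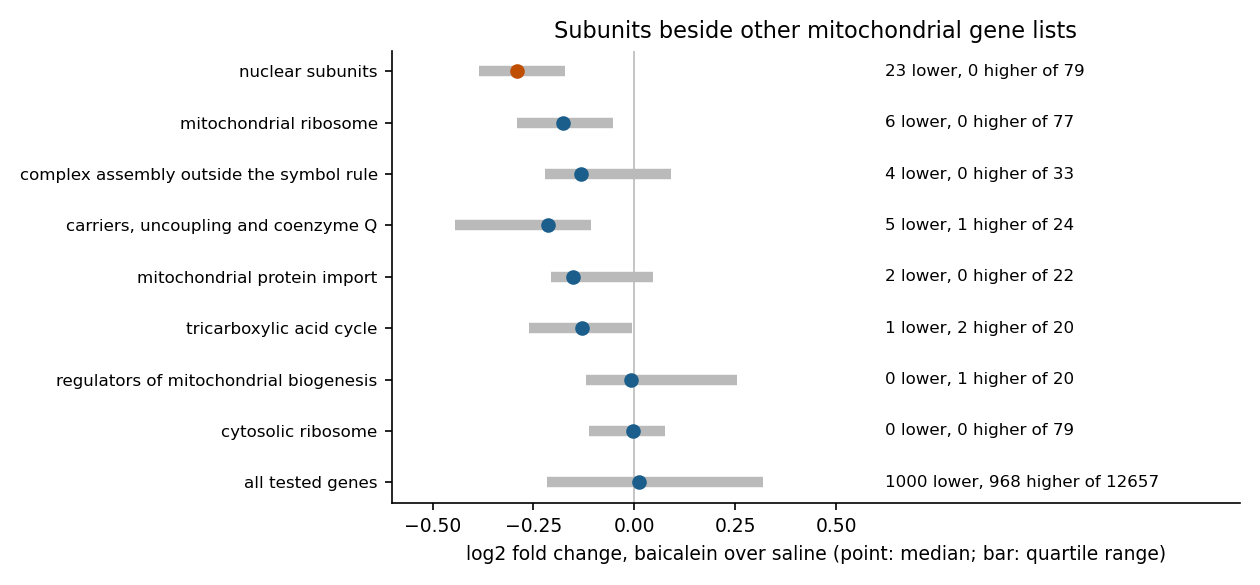
Median log2 fold change (baicalein over saline; points) and the range between the quartiles of the tested genes (bars) for the nuclear subunits, 7 other lists and all tested genes, with the numbers called lower and higher at the right. The subunits have the lowest median, -0.29, and 23 calls, while the cytosolic ribosome and all tested genes have medians of 0.00 and 0.01.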

How the data were processed

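RNA was sequenced from 4 livers, 2 of mice given baicalein and 2 of mice given saline. Per the labels' protocols, a commercial kit was used to extract RNA and a SMARTer mRNA kit to prepare libraries. Genome build mm10 is named in the submitters' processing notes; no source used here names the aligner or counter or states how strand and shared reads were treated. Per the file headers, 1 deposited table holds a raw whole-number read count and an FPKM value for each gene and liver. No per-sample column of the table was left unused. Columns were tied to livers by names that match the sample titles, and groups came from the treatment labels.

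Deposited counts were used for every test. Deposited FPKM, scaled by gene length and library total, matched the counts within 1% in all members (3 other genes did not). FPKM served to compare levels between genes, to give isoform shares and to see whether groups apart by CPM overlapped. No test used FPKM. Genes kept by filterByExpr (12657 of 21959) were scaled by TMM (factors 0.985 and 1.07 for baicalein, against 0.963 and 0.981 for saline) and fitted in R 4.3.3 with edgeR 4.0.16 (quasi-likelihood with robust estimation, no covariate, two-sided, Benjamini-Hochberg over all tested genes, threshold 0.05). The common biological coefficient of variation was 0.289. No permutation of 2 against 2 livers can pass 0.05, so edgeR's p-values draw on a spread estimated across genes. CPM are counts scaled to the TMM-normalised library; SDs have n = 2. With 13976440 to 18731616 counts a liver, 3 counts correspond to 0.149 to 0.219 CPM. Shared sequence was searched with BLAST+ 2.17.0 in GENCODE M21 transcripts (98% identity, 100 bases). Of the 116 members, 17 have the same start and end there, all 13 mitochondrial ones included, so other positions are printed as the table gives them. Permutation tests used scipy 1.17.1 in Python 3.11.15. The fit was also run on simulated counts, with a fixed dispersion below the real one and larger fold changes than those of the called members. That run cannot tell how often calls of the size reported here are false or missed.

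Named genes are members past the threshold, the subunits of highest and lowest FPKM in each complex, every mitochondrially encoded gene, isoform pairs, and up to 4 called genes (otherwise 2) of each further list; others are said to be named after their values were seen, and 1 member that the rule names is not reported here. Members and lists were chosen with earlier results of these data known. Alternatives in scaling, tool and filter were median-of-ratios (RLE) factors, library totals, TMM without mitochondrial genes, DESeq2 1.42.0, voom in limma 3.58.1, no filter and a mean of at least 1 CPM. Alternatives in the samples were the replicate number as a block, a crossed pairing as a block, each liver left out, and 2 pairs of single livers.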

Additional observations from a re-analysis of the deposited data

How the results depend on the processing

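The number of members called higher stayed at 0 in every alternative. DESeq2 called 36 members lower, 23 of the 27 among them, and limma-voom 30, 26 of the 27 among them. The 27 lower calls became 25 with median-of-ratios factors and 27 with TMM factors from genes outside the mitochondrial genome. These calls became 32 without a filter and 25 at a mean of at least 1 CPM. They became 16 with library totals alone, and 5 to 11 with each liver left out. In all tested genes, leaving out each liver gave 535 to 663 lower and 521 to 665 higher calls. The same replicate number did not pair the livers (correlation of deviations -0.74 over all tested genes): the replicate number used as a block called 9 members lower, with 601 lower and 531 higher over all genes, while the crossed pairing as a block called 51 members lower, with 1689 lower and 1809 higher.

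The median log2 fold change of nuclear subunits and of mitochondrially encoded genes was -0.21 and -0.19 with library totals. Leaving out each liver gave -0.34 to -0.28 and -0.40 to -0.29. Baicalein 1 against saline 2 gave -0.26 for nuclear subunits, and baicalein 2 against saline 1 gave -0.33 and, for mitochondrially encoded genes, -0.37. By counts in place of FPKM, the baicalein 2 shares of Cox7a1, Cox8b and Cox4i2 were 8.36%, 4.63% and 0.448%, against 13.9%, 7.70% and 0.877% by FPKM.

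Signs turned only in genes that were not called. With library totals, fold changes were 0.017 for Uqcrb, 0.0024 for Cox7b, 0.0060 for mt-Nd6 and 0.046 for Cox6a2, which also had 1.55 with limma-voom and 0.30 with the replicate block. Left-out livers gave ranges of -0.058 to 0.31 for Ndufb2, -0.47 to 0.96 for Atp5o, -8.10 to 8.30 for Cox8b, -4.95 to 10.03 for Cox6a2, -0.66 to 0.21 for mt-Nd5, -0.41 to 0.33 for mt-Nd6 and -1.53 to 2.596 for Cox7a1. The cause of these changes was not tested. The low-count filter kept 9 members out of the test, and 13 of the 27 calls passed in none of the fits with a liver left out.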
